A study of Mus musculus with 11 samples.

Results

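Platelet-derived growth factor (PDGF) signaling was examined through its 4 ligand genes, Pdgfa, Pdgfb, Pdgfc and Pdgfd, and its 2 receptor genes, Pdgfra and Pdgfrb. They were taken by name, as all probes of the array annotated to one of these 6 genes, among 36413 gene names. They had 8 of the 55681 probes, of which 7 were detected. The aortas came from male C57BL/6 mice aged 20 months that drank 1 g/L sodium nitrate for 8 weeks (5 mice) or were controls (6 mice). The study's methods give the controls an equal concentration of sodium chloride, whereas the sample labels name no salt and call the control arrays a reanalysis of earlier samples, so it is not known whether the groups were housed side by side. The whole descending aorta was used, cleaned of surrounding fat, and each mouse was hybridized to 1 one-color Agilent mouse array, which reads each transcript by short DNA strands fixed to its surface. In such a bulk sample, fewer cells of a type and less RNA per cell cannot be told apart.

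PDGFs are dimeric growth factors for cells of mesenchymal origin. PDGF-A and PDGF-B are secreted in active form, while PDGF-C and PDGF-D carry a CUB domain that proteases must cut off before they bind. The receptors are tyrosine kinases that pair upon binding and phosphorylate each other. PDGFR-alpha is known for fibroblasts and binds PDGF-A, PDGF-B and PDGF-C, whereas PDGFR-beta marks pericytes and vascular smooth muscle cells and binds PDGF-B and PDGF-D. In arteries, PDGF-B from endothelial cells recruits mural cells, and in injured vessels PDGF drives smooth muscle cells to divide and migrate.

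Each probe is a DNA strand of 60 bases, positioned in mm9. The Pdgfc probe lies on chromosome 3 from 81017572 to 81017631. The pair of Pdgfa probes lies on the minus strand of chromosome 5 from 139452925 to 139452993, where they start 9 bases apart and share 51 bases, so they are no independent readouts. The pair of Pdgfb probes, on the minus strand of chromosome 15, starts 1062 bases apart and shares none. Exon and UTR borders in mm9 were not used here. The Pdgfd probe, on the plus strand of chromosome 9 from 6376926 to 6376985, is printed as an example of what the array measures, since this ligand has no other probe.
Pdgfd probe: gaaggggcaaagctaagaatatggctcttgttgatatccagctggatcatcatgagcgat

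The 75th percentile of the processed signal lay between 213 and 289 over the 11 arrays, and 24760 to 28655 probes of an array were found and well above background. The arrays lay on 3 slides that each held both groups. Slides 1 and 3 each had 2 nitrate treated mice and 2 controls, while slide 2 had 1 nitrate treated mouse and 2 controls. All controls lay in column 3 of a slide and no nitrate treated mouse did, so that column and treatment cannot be told apart. Control 1 stands apart here, since it had the lowest signal of all 11 mice for 5 of the 6 genes. Its summed signal of smooth muscle and of heart muscle markers also lay far from the other controls. Over the whole array it was not the mouse least like the others. Its mean correlation with them was 0.983, against 0.978 for control 5. Differences of the 6 genes are also given without control 1. As it was picked by these same low values, lower differences without it follow from the choice. Signals are log2 values after quantile normalization, and a difference is the nitrate treated minus the control mean. How precise a value can be is set by the number of arrays.

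Of the 6 genes, only Pdgfrb passed the study's thresholds, a fold change above 1.2 together with an unadjusted P value under 0.05. It was 1.21-fold higher in nitrate treated mice, just above that limit. Pdgfc rose with an unadjusted P value under 0.05 but a smaller fold change of 1.15, and its P value stayed under 0.05 in only 3 of the 11 fits that left out a mouse. Pdgfd and Pdgfra had higher means in nitrate treated mice that did not pass the test. Pdgfa and Pdgfb differed by less than the spread between mice. Over all 23632 detected probes, 9.00% passed both thresholds, with 4.14% higher and 4.85% lower in nitrate treated mice. A P value under 0.05 alone was found for 14.4%, of which 7.71% of all probes were higher and 6.67% lower.

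**Figure D1:**
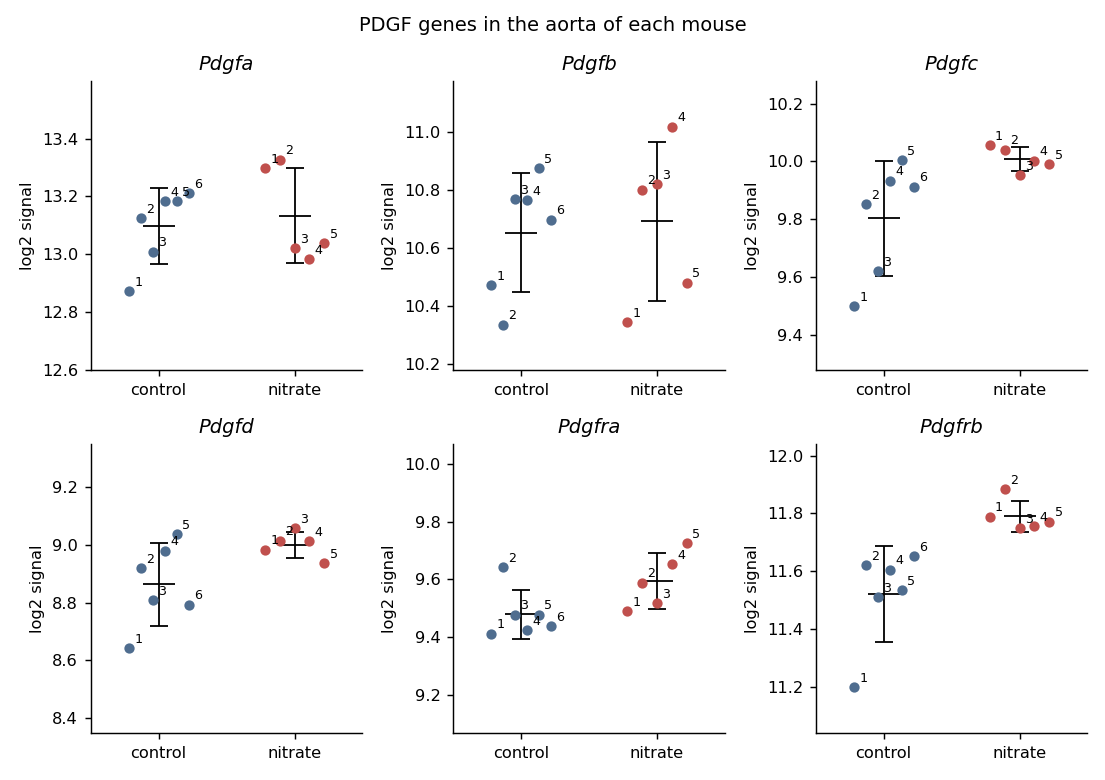
Log2 signal (y axis) of the brightest detected probe of each PDGF gene in 6 control and 5 nitrate treated mice, with points numbered by replicate and bars for the mean and SD. Each panel spans 1 log2 unit, and the groups are separate in Pdgfrb alone, where control 1 is the lowest at 11.20.

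The Pdgfrb probe lies on chromosome 18 from 61244606 to 61244665 in mm9, on the plus strand. Pdgfrb, the receptor of mural cells, had log2 signals of 11.79, 11.88, 11.75, 11.76 and 11.77 in the 5 nitrate treated mice. In the 6 controls the lowest was 11.20, the median 11.57 and the highest 11.65. Every nitrate treated mouse lay above every control, which 1.62% of all detected probes also showed in this direction. The means were 11.79 ± 0.05 (SD, n = 5) and 11.52 ± 0.17 (SD, n = 6). The difference was 0.27 with a standard error of 0.08, with an unadjusted P value of 0.00732 by limma (two-sided exact permutation test, p = 0.00433). The adjusted P value over all detected probes was 0.219, so the gene was not called after adjustment, which 3 probes of the array were (0.0127%). Pdgfrb is among the genes that the study listed from arrays that overlap with these (6 replicates per group by its methods), so the call is not independent evidence. Without control 1 the difference was 0.20, with a limma P value of 0.00371, and without nitrate treated mouse 2 it was 0.25, with a limma P value of 0.0210. In either case the fold change fell below 1.2, so the call was lost. The difference was 0.43 within slide 1, which held control 1, 0.12 within slide 2, with 1 nitrate treated mouse, and 0.24 within slide 3.

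The Pdgfra probe lies on the plus strand of chromosome 5 from 75593888 to 75593947 in mm9. Pdgfra, the receptor of fibroblasts and other mesenchymal cells, had log2 signals of 9.49, 9.59, 9.52, 9.65 and 9.73 in nitrate treated mice. The controls had a lowest value of 9.41, a median of 9.46 and a highest value of 9.64. The groups overlapped, with control 2 above nitrate treated mice 1, 2 and 3. The difference was 0.12 with a 95% interval from -0.03 to 0.26, and it did not pass the test (limma P value of 0.112; exact permutation test, p = 0.0714). Without control 1 the difference was 0.10, with a limma P value of 0.161. With single mice left out it lay between 0.08 without nitrate treated mouse 5 (limma P value of 0.257) and 0.15 without control 2 (limma P value of 0.0459). Within slides it was 0.01, 0.09 and 0.21.

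The array carries the Pdgfra probe in 10 spots, which gives the error between spots of an array. The SD between spots of 1 array lay between 0.04 and 0.11, with a median of 0.07 and a median standard error of the array mean of 0.02. The SD between mice was 0.10 in nitrate treated mice and 0.08 in controls. The error between spots leaves out that of RNA preparation, labeling and hybridization. The other members had 1 spot per probe, and no such error can be given for them.

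**Figure D2:**
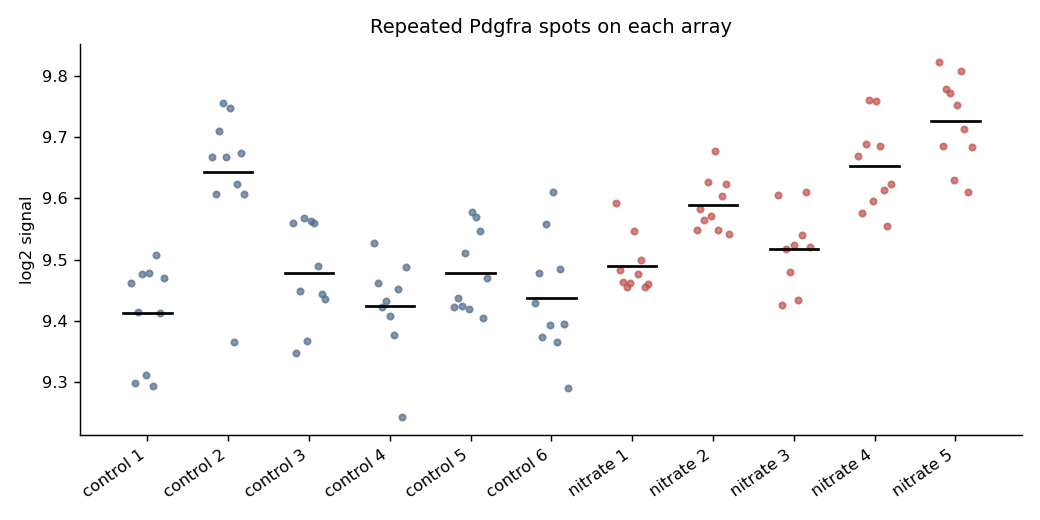
Log2 signal (y axis) of the repeated spots of the Pdgfra probe on the array of each mouse (x axis), without 2 spots that the scanner software marked as outliers. Black lines are the means of an array, highest at 9.73 in nitrate treated mouse 5 and at 9.64 among controls in control 2.

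Whether the receptors changed unequally was tested on the difference between them within each mouse. Pdgfrb minus Pdgfra was 2.19 ± 0.11 (SD, n = 5) on the log2 scale in the nitrate treated group, against 2.04 ± 0.15 (SD, n = 6) in the controls. These values differ by 0.15, which did not pass the test (two-sided exact permutation test, p = 0.0974). The difference was 0.10 without control 1 (exact permutation test, p = 0.167) and 0.08 without control 1 and nitrate treated mouse 2 together (exact permutation test, p = 0.302). A larger change of Pdgfrb than of Pdgfra was thus not shown.

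Among the ligands, Pdgfc had log2 signals of 10.06, 10.04, 9.95, 10.003 and 9.99 in nitrate treated mice. The lowest control was at 9.50, the median at 9.88 and the highest at 10.004. Controls 1 and 3 were low, and control 5 alone lay within the range of the nitrate treated mice, so that the groups overlapped. The difference was 0.21 with a standard error of 0.09, and the limma P value 0.0471 before adjustment (exact permutation test, p = 0.0325). The adjusted P value was 0.342. Without control 1 the difference was 0.14, with a limma P value of 0.0802. Within slides 1, 2 and 3 it was 0.37, 0.03 and 0.19.

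Pdgfd, the other ligand with a CUB domain, had log2 signals of 8.98, 9.01, 9.06, 9.01 and 8.94 in nitrate treated mice. The lowest control was at 8.64, the median at 8.86 and the highest at 9.04. The nitrate treated mice lay close together, all above the control median, and mouse 3 lay above all controls. The difference was 0.14 with a 95% interval from -0.03 to 0.30, and it did not pass the test (limma P value of 0.0962; exact permutation test, p = 0.0758). Without control 1 it was 0.09, with a limma P value of 0.175, and without control 5 it was 0.17, with a limma P value of 0.0416. The spot was found and well above background in all controls and in 4 of 5 nitrate treated mice, with processed signals between 349 and 585 over local backgrounds between 23 and 30. Nitrate treated mouse 2 lacked this mark, although its log2 signal of 9.01 was near that of the others in its group.

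Pdgfa, which acts through PDGFR-alpha, had log2 signals of 13.30, 13.33, 13.02, 12.98 and 13.04 in nitrate treated mice. Controls ranged from 12.87 to 13.21 with a median of 13.15. Nitrate treated mice 1 and 2 lay above all controls and the other 3 inside their range. The difference was 0.04 with a 95% interval from -0.16 to 0.24 (exact permutation test, p = 0.688). Within slides it took both signs, at 0.31 within slide 1, -0.18 within slide 2 and -0.09 within slide 3. Without control 1 the difference was -0.01. The overlapping probe gave a difference of 0.01 (exact permutation test, p = 0.959).

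Pdgfb, the ligand that recruits mural cells, had log2 signals of 10.34, 10.80, 10.82, 11.02 and 10.48 in nitrate treated mice with the brighter probe. Controls ranged from 10.33 to 10.88 with a median of 10.73. The groups overlapped nearly throughout, and the difference was 0.04 with a 95% interval from -0.25 to 0.34 (exact permutation test, p = 0.784). Without control 1 the difference was 0.0048. The interval leaves room for a change of the size seen in Pdgfrb, so Pdgfb is not shown to be unaltered. Its other probe had a spot that was found and well above background in 1 nitrate treated mouse and 2 controls, with processed signals from 49.6 to 78.9. This mark did not follow brightness, as nitrate treated mouse 5 had it at a log2 signal of 5.82 and mouse 2 lacked it at 6.17. The dimmer probe did not pass the detection rule and had a difference of -0.10 with a 95% interval from -0.37 to 0.18. The brighter probe, by contrast, was found and well above background on every array.

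**Figure D3:**
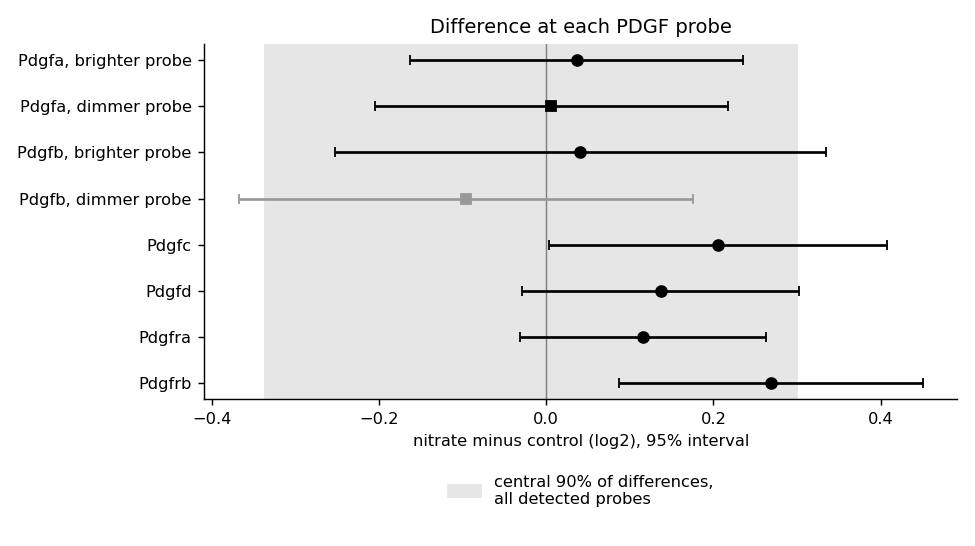
Nitrate treated minus control difference on the log2 scale (x axis) with its 95% interval from limma's fit for each of the 8 PDGF probes, circles for the probe that represents a gene, squares for other probes and gray for the undetected one. The band spans the 5th to the 95th percentile of the differences of all 23632 detected probes, from -0.34 to 0.30, and the intervals of Pdgfc and Pdgfrb do not reach 0.

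In all 6 genes the representing probe had a higher mean in nitrate treated mice, as did 53.7% of all detected probes. For Pdgfa and Pdgfb this sign turned when single mice were left out. The SD in nitrate treated mice was below that in controls for Pdgfc (0.04 against 0.20), Pdgfd (0.04 against 0.14) and Pdgfrb (0.05 against 0.17), where control 1 was the lowest control. It was above that in controls for Pdgfa (0.17 against 0.13), Pdgfb (0.28 against 0.21) and Pdgfra (0.10 against 0.08). Control 1 was the lowest control for Pdgfa and Pdgfra as well. No test of the spread was made.

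**Figure D4:**
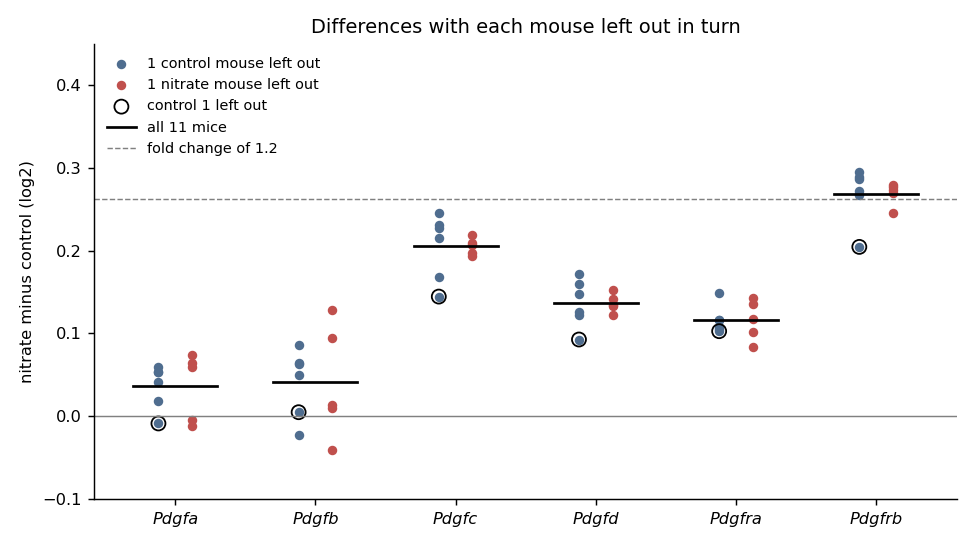
Nitrate treated minus control difference on the log2 scale (y axis) for each gene, with all 11 mice (black lines) and with each mouse left out in turn (points; open circles mark control 1). Pdgfrb stays between 0.20 and 0.30, around the dashed line of a 1.2-fold change, and Pdgfa and Pdgfb lie around 0.

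The wider pathway was described by 5 lists, written by hand with earlier results of these data known. They hold 87 genes, of which 75 had a detected probe. Of these 75, 3 rose and 3 fell by both thresholds, which is 6 of 75 beside 9.00% of all detected probes, and none passed after adjustment over all detected probes in limma's test (6 had an unadjusted P value under 0.05). The median difference of the 75 was 0.00, and that of all detected probes 0.01.

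Among 9 detected genes that process or bind PDGF, 2 rose by both thresholds, beside 4.14% of all detected probes, and none fell. Their median difference was 0.09, and 7 of 9 had a higher mean in nitrate treated mice. Plat, the tissue plasminogen activator that cuts the CUB domain from PDGF-C, averaged 10.04 ± 0.35 (SD, n = 5) on the log2 scale with nitrate and 9.70 ± 0.09 (SD, n = 6) without. Its nitrate treated mice ranged from 9.72 to 10.45 and overlapped the controls (exact permutation test, p = 0.0216). The call was lost without nitrate treated mouse 1 (difference of 0.25, limma P value of 0.0682) or mouse 2 (0.27, limma P value of 0.0706). It was also lost without control 1 and nitrate treated mouse 2 together (0.25, limma P value of 0.110) and with replicate number as a block (0.36, limma P value of 0.0520). St14, the protease matriptase, which can process PDGF-D, was 0.31 higher, with low log2 signals of 4.997 ± 0.32 (SD, n = 5) under nitrate against 4.68 ± 0.15 (SD, n = 6), p = 0.0260 by exact permutation. This call was lost in 7 of the 11 fits that left out a mouse, control 1 among them (limma P value of 0.0584), where the difference lay between 0.17 and 0.38, and 5 of 11 other settings kept it. The difference was 0.11 with normexp background correction (limma P value of 0.0927) and 0.21 with an offset of 16 (limma P value of 0.0559). The plasma membrane co-receptors were not called, with a difference of -0.19 for Nrp1 and 0.14 for Lrp1.

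None of the 29 detected genes that relay the signal passed the thresholds, beside 9.00% of all detected probes, which also stands beside the counts of the next 2 lists. The median difference of the 29 was 0.02. These include adaptors, Ras and MAP kinase genes, and subunits of PI3 kinase. The smallest P value belonged to Pik3r1, a regulatory subunit of PI3 kinase, whose difference was -0.23 (limma P value of 0.0687). Nor did any of 13 detected negative regulators and scaffolds, such as the ubiquitin ligase Cbl, where Acp1, a phosphatase of PDGF receptors, had the smallest P value, at 0.106 with a difference of 0.12. Another Acp1 probe had a difference of 0.25, with a limma P value of 0.0111. Of 11 detected response genes, which include Egr1, Fos and Klf4, none was called. Their median difference was -0.14, and Klf5 had the smallest P value, at 0.163 with a difference of -0.21.

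The related ligands and receptors held the other 4 called genes, among 13 detected, beside 9.00% of all detected probes. This count uses the brightest probe of a gene. Further probes passed both thresholds for Kdr, a VEGF receptor (-0.57, limma P value of 0.00646), Vegfa (-0.35, limma P value of 0.0274) and Flt3l (0.28, limma P value of 0.0256). The brightest probes of these genes did not pass, with differences of -0.10, -0.19 and 0.21. VEGFs are related to PDGFs in sequence, and Kit and the receptor for Csf1 and Il34 belong to the same class of receptor kinases as the PDGF receptors. Vegfb, a ligand of the VEGF branch, fell by 0.40, from 11.06 ± 0.10 (SD, n = 6) in controls to 10.66 ± 0.12 (SD, n = 5) under nitrate. All nitrate treated mice lay below all controls (exact permutation test, p = 0.00216, the smallest value possible). Kit, the receptor of stem cell factor, fell by 0.81, from 7.67 ± 0.55 (SD, n = 6) to 6.86 ± 0.29 (SD, n = 5), and again the groups were separate (p = 0.00433 by exact permutation). Without control 1 and nitrate treated mouse 2 together the difference was smaller, at -0.49, and still passed the test (limma P value of 0.00801).

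Csf1, the growth factor of macrophages, rose by 0.31, from 10.07 ± 0.12 (SD, n = 6) to 10.38 ± 0.08 (SD, n = 5), with every nitrate treated mouse above every control (exact permutation test, p = 0.00433). Its other detected probes had differences of 0.23 and 0.19, with limma P values of 0.0640 and 0.119. The fold change fell below 1.2 with the mean over its probes (0.24) and without control 1 and nitrate treated mouse 2 together (0.25). Il34, which binds the same receptor, fell by 0.47 while the groups overlapped (p = 0.0303 by exact permutation). This call was lost without nitrate treated mouse 1 (-0.38), nitrate treated mouse 5 (-0.33) or control 3 (-0.38), with limma P values of 0.0667, 0.0670 and 0.0532. The receptor gene itself, Csf1r, had a difference of 0.00. Adjusted P values over all detected probes were 0.0926 for Vegfb, 0.144 for Csf1, 0.213 for Kit and 0.294 for Il34. In this list 3 of 13 genes did not overlap between the groups, against 2.76% of all detected probes. The list was written with earlier results of these data known, so its counts beside these shares are no test.

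**Figure D5:**
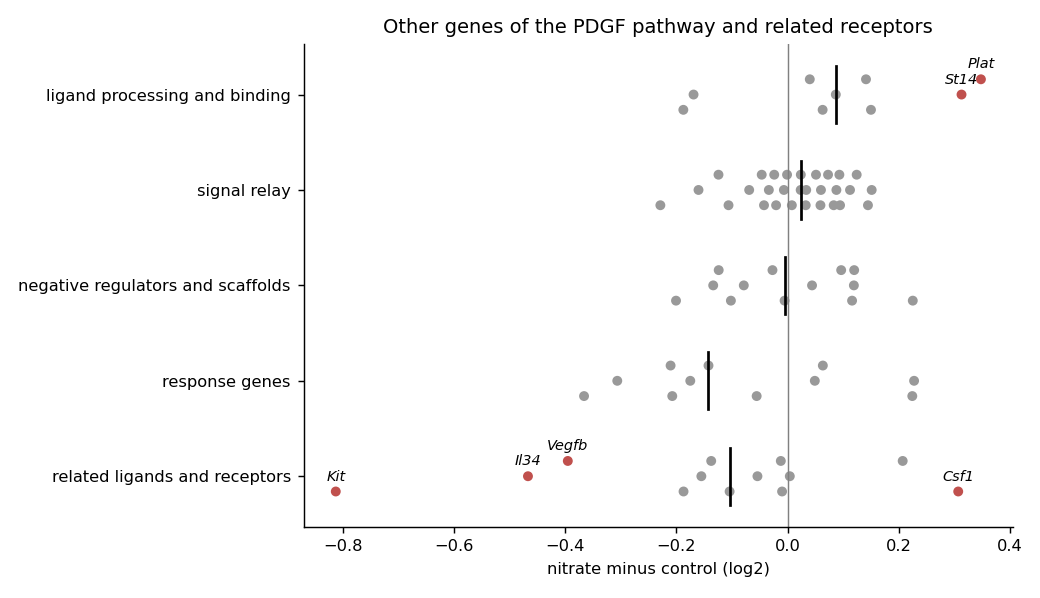
Nitrate treated minus control difference on the log2 scale (x axis) of the 75 detected genes in 5 lists, red where a gene passed both thresholds and gray otherwise, with a black line for the median of a list. The called genes are Plat and St14, which rose, and Csf1, Vegfb, Il34 and Kit, of which Csf1 rose and the others fell.

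Genes with a similar course over the 11 mice were sought by the root mean square difference between centered log2 profiles. For Pdgfrb the nearest were Twsg1 (0.04), Sec24d (0.05) and Hmgn3 (0.05), where Pdgfrb itself varied by 0.18 around its mean. For Pdgfc they were Klhdc8b, Igf1r and Hyi, for Pdgfd Sdc2, Dnttip2 and Cplx2, and for Pdgfra Imp3, Cdk10 and Gm16436. For Pdgfa they were Trmt61a, Gm16476 and Gli3, and for Pdgfb Uap1, Kpna2 and Zfp428, the latter at larger distances from 0.10 to 0.11. No gene of the 6 was among the 3 nearest of another.

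Among markers of smooth muscle cells, fibroblasts and pericytes, 1 gene passed both thresholds. The summed linear signal of 8 smooth muscle markers, which were all detected, lay between 548887 and 723052 in controls and between 693914 and 728384 in nitrate treated mice. Control 1 had the lowest sum. By both thresholds 1 of the 8 was called, Lmod1, which rose by 0.30, beside 9.00% of all detected probes, and 7 had a higher mean in nitrate treated mice, beside 53.7%. An unadjusted P value under 0.05 was found for 2 of the 8, beside 14.4%. The other one, Smtn, had a difference of 0.26 (limma P value of 0.0474), and each nitrate treated mouse lay above each control, as for Pdgfrb and 1.62% of all detected probes. The 9 fibroblast markers ranged from 165173 in control 1 to 206334 in controls and from 186327 to 228202 in nitrate treated mice. All 9 had a higher mean there, beside 53.7% of all detected probes. None was called, beside 9.00%, and 3 had an unadjusted P value under 0.05, beside 14.4%. The 6 pericyte markers had a median difference of 0.07 and none was called.

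The 10 adipocyte markers had sums between 352120 and 482834 in controls and between 276513 and 362529 in nitrate treated mice, with 4 called, all lower, beside 4.85% of all detected probes called lower. Heart muscle markers, of which Myl2 was not detected, were far higher in control 1 (35676) and nitrate treated mouse 4 (55765) than the medians of 2587 in controls and 4259 in nitrate treated mice. None was called of the 7 detected heart muscle, 9 endothelial, 8 macrophage, 4 platelet and 4 skeletal muscle markers, beside 9.00% of all detected probes. Of 4 detected Schwann cell markers 1 was called, Mbp, which fell by 0.46. The part of these cell types in the differences of Pdgfrb and Pdgfc was not tested.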

How the data were processed

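For each of 11 arrays the authors deposited Feature Extraction 10.7.1.1 output, whose processed intensities are corrected for background within an array and not normalized between arrays. A deposited log2 table matched the quantile normalized log2 signals centered on the median of each probe (correlation of at least 0.99997 per array over detected probes, column medians between -0.018 and 0.002), so its scale, centering and direction are known.

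Processed signals below 1 were set to 1. Control spots and spots marked as outliers were dropped, the log2 values of repeated spots were averaged per probe, and arrays were quantile normalized. Detection required a found spot well above background in 5 or more mice of either group. A gene was represented by its brightest detected probe. Groups came from the sample titles. They were compared with limma 3.58.1 in R 4.3.3 over all detected probes, with Benjamini-Hochberg adjustment, and by exact two-sided permutation over the 462 ways to divide the mice. The fit was tested on simulated data. Each array is a separate animal by the study's methods. A further nitrate treated mouse was not analysed here.

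The members and lists were chosen with earlier results of these data known. The genes named are the 6 members, up to 6 called genes of a pathway list or else the one with the smallest P value, and the 3 nearest profiles. Nrp1, Lrp1, Csf1r, Kdr, Vegfa, Flt3l, Cbl, Egr1, Fos, Klf4 and the marker genes were named as examples after their values were seen. Hras was matched through its older name Hras1. Alternatives were scaling to the 75th percentile, normexp background correction, an offset of 16, the deposited table, stricter and no detection filters, kept outlier spots, a trended prior, slide or replicate blocks, probe means, and each mouse left out. Leaving out control 1 and nitrate treated mouse 2 together was chosen after seeing the data.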

Additional observations from a re-analysis of the deposited data

Results flagged for a closer look

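A single mouse was distant from the rest of its group in 4 of 38 groups examined, where chance gives about 1.9. Distance is expressed as the share of the group's whole range that separates this mouse from the next. Control 1 was low in Pdgfrb (0.690) and in the summed smooth muscle markers (0.630), and high in the summed heart muscle markers (0.713). Control 2 was high in Pdgfra (0.715).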

How the results depend on the processing

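Pdgfrb kept its direction and an unadjusted limma P value under 0.05 in 12 other settings and in all 11 fits without a mouse, with differences from 0.18 to 0.30 and from 0.20 to 0.30. Its adjusted P value lay between 0.177 and 0.425 over the 12 settings. Not all of these were separate checks. The detection filters, the trended prior and the probe mean could not alter its difference of 0.27, and the deposited table holds nearly the same values. With each mouse left out, the number of members called ranged from 0 to 1 (0 without control 1 or nitrate treated mouse 2) and that of members with an unadjusted P value under 0.05 from 1 to 3. The differences ranged from -0.012 to 0.074 for Pdgfa, -0.04 to 0.13 for Pdgfb, 0.14 to 0.25 for Pdgfc, 0.093 to 0.17 for Pdgfd and 0.083 to 0.15 for Pdgfra. The sign turned for Pdgfa without nitrate treated mouse 1 (-0.0048), mouse 2 (-0.012) or control 1 (-0.0088), and for Pdgfb without nitrate treated mouse 4 (-0.041) or control 2 (-0.022). Pdgfc lost its P value under 0.05 in 8 of these 11 fits. Without control 1 and nitrate treated mouse 2 together, 0 members were called and 1 had a P value under 0.05, with differences of -0.057 for Pdgfa, -0.022 for Pdgfb and 0.14 for Pdgfc. Within slide 1, which held controls 1 and 2, the difference was 0.31 for Pdgfa and 0.012 for Pdgfra. Within slide 2, with 1 nitrate treated mouse, it was -0.18 for Pdgfa. The cause was not tested.

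Replicate numbers did not pair the mice: same-numbered mice had correlations between -0.136 and 0.180 of their deviations from the group means, and 1 of 5 correlated best with its own number. With the replicate block, Pdgfc had a difference of 0.23 and a limma P value of 0.0619, so 1 member had a P value under 0.05, while Pdgfrb had 0.30 and 0.0130. The called pathway genes numbered 4 to 8 over the other settings and 5 to 7 with each mouse left out. Pdgfd has no value where detection on all 11 arrays was required.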
